A study of Mus musculus with 9 samples.

Results

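Lysosomal hydrolases are the enzymes that break down protein, sugar chains, glycolipids and lipids inside the lysosome, and the cathepsins are the best known of its proteases. The group described here has 37 genes: 10 cysteine cathepsins, legumain, 3 serine or aspartic proteases, 9 glycosidases, 2 sulfatases, 4 genes of lipid breakdown, 2 of sterol export, 1 acid phosphatase, 4 membrane proteins and the transcription factor Tfeb. They were chosen by symbol, and each is represented by its brightest probe set over all arrays. All 37 were measured, among 19938 genes with a probe set of their own and 28939 probe sets tested.

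RNA of whole liver was measured on 9 Affymetrix arrays, 3 for each of 3 genotypes. The first group was wild type. The second was a hepatocyte-specific knockout of NEMO (NEMOΔhepa), the regulatory subunit of the kinase complex that activates NF-kB. The last came from crossing that knockout with p21-/- mice, so that NEMO was deleted in hepatocytes and p21, a cyclin-dependent kinase inhibitor, in every cell. All animals were male, on standard chow and 8 to 9 weeks old, and the labels give the background C57/BL6. The promoter that drove the hepatocyte deletion is not given in the sources used here, the other liver cells kept their NEMO gene in both knockouts, and no group lacked p21 alone. Array values are on the log2 scale, differences are means of 3 arrays ± standard error (SE), and a gene is called when its adjusted p is under 0.05.

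The labels were checked first. Ikbkg, which encodes NEMO, fell by 0.52 ± 0.11 in the NEMO knockout (adjusted p = 0.0184) and by 0.60 ± 0.11 in the cross with p21-/- (adjusted p = 0.00835). The Cdkn1a probe set, which is also annotated to another transcript, averaged 8.67 over the wild type arrays, 10.10 over the NEMO knockout arrays and 10.78 in the cross. Against wild type it was higher by 1.43 ± 0.45 in the NEMO knockout (adjusted p = 0.101 from limma) and by 2.11 ± 0.45 in the cross (adjusted p = 0.0194). The difference between the knockouts was 0.68 ± 0.45 (adjusted p = 0.803). Cdkn1a encodes p21, so this signal goes against the label unless the probe set lies outside the deleted part, and that group is called the labelled double knockout for that reason. Of 6 measured hepatocyte markers such as albumin none was called, and their mean level lay between 13.12 and 13.33 on all 9 arrays. Over all probe sets 5.66% were called higher and 2.02% lower in the NEMO knockout, and 5.81% and 3.51% in the cross. At those shares, no call among 6 genes is no result about the list. NEMO knockout replicate 1 stood apart from the other arrays of its group on the second principal component (6.27 against -17.1 and -22.9). It lay there within the range of the arrays of the cross, which were at 23.6, 3.18 and 8.77.

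The lysosome is an acid compartment bounded by a heavily glycosylated membrane. A proton pump keeps it acid, and its soluble enzymes are made as inactive precursors, tagged with mannose phosphate in the Golgi and delivered by sorting receptors. In liver, hepatocytes use it for autophagy and for the turnover of glycogen and lipid droplets. Kupffer cells, the resident macrophages, use it to digest what they take up, and antigen-presenting cells use cathepsins to trim the invariant chain from MHC class II molecules. Transcription factor EB (TFEB) and its relatives induce many lysosomal genes together by binding an E-box, CACGTG, at the core of the element known as CLEAR.

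Promoter sequences are shown for 4 members to set that element beside the measurements. Lgmn, Ctsd and Gaa are shown because they were called in both knockouts and hold the E-box, and Ctss because it had the largest difference of the group and holds none. Each run is the 250 bases before the transcription start in the RefSeq table of assembly GRCm38.p6, read 5′ to 3′ on the gene's strand. Capitals mark the E-box, or in Ctsd once the extended palindrome TCACGTGA, and in Ctss a match to GAAANNGAAA, a pattern of interferon-response elements that was searched for after the sequence had been seen.
Lgmn: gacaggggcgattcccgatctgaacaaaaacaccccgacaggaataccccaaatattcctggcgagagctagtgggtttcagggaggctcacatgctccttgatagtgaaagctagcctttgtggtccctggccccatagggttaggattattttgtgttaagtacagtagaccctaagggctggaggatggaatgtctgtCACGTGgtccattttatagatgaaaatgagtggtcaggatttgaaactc
Ctsd: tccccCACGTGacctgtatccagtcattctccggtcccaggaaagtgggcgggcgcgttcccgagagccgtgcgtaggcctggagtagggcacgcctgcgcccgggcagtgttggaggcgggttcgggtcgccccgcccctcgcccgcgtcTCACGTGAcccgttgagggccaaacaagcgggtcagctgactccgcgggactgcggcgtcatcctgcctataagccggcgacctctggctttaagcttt
Gaa: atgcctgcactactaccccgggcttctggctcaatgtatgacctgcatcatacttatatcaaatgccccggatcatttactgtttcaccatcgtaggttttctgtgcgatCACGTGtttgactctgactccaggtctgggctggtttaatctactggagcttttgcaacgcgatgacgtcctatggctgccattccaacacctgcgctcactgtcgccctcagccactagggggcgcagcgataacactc
Ctss: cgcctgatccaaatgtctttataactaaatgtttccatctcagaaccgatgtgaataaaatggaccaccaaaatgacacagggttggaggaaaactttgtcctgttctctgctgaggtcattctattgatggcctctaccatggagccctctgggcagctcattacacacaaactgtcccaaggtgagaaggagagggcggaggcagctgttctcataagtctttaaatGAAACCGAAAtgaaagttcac
The Lgmn run is chr12:102439093-102439342 on the minus strand, before the more downstream of 2 Lgmn starts in the table, and its E-box begins 49 bases before that start. The entry of the other Lgmn start holds no E-box. The Ctsd run is chr7:142387828-142388077 on the minus strand, with E-boxes beginning 245 and 98 bases before the start, the nearer inside the extended palindrome. The Gaa run is chr11:119267713-119267962 on the plus strand, with the E-box 140 bases before the start. The Ctss run is chr3:95526536-95526785 on the plus strand, and its marked pattern begins 21 bases before the start.

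Of the 37 members, 32 were in the promoter table. Searched from 250 bases before to 50 after each start, on both strands, CACGTG was found in 10 of those 32 (31.2%), against 8.09% of the 27025 genes in the table. The 10 were Ctsa, Ctsd, Ctsf, Ctsl, Gaa, Gla, Glb1, Lamp1, Lgmn and Mcoln1. TCACGTGA, which contains CACGTG, was found in 4 (Ctsa, Ctsd, Gla and Mcoln1, 12.5%), against 1.12% of genes. CACGTG was in 2 of the 7 members with a promoter that were called higher in the NEMO knockout and in 7 of the 24 that were not called. GAAANNGAAA, searched on both strands, was in 3 of the 32 (Ctso, Ctss and Lamp1), against 3.99% of genes. A match is a description of the sequence and not a binding site.

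In the NEMO knockout 10 of the 37 members rose (27.0%), against a background of 5.66% of all probe sets called higher, and 1 fell, against 2.02% called lower. The 10 were the cysteine cathepsins Ctss, Ctsw and Ctsb, legumain, the aspartic protease Ctsd, the glycosidases Hexa and Gusb, the sphingolipid genes Psap and Asah1, and the sterol carrier Npc2. The 1 that fell was Gaa, the glycogen-degrading acid alpha-glucosidase. In the labelled double knockout 10 rose and 1 fell as well, against backgrounds of 5.81% and 3.51%. Of the 10 called higher there, 9 were also called in the NEMO knockout (90% of each list), Lipa standing in place of Ctsw, and Gaa was again the 1 that fell. A total of 25 members were called in neither comparison. Both comparisons use the same wild type arrays. The members were bright, with a median percentile of 91.9 for their mean level among the probe sets tested. With dim probe sets left out, the backgrounds called higher were 8.141% and 8.104%, and 12 and 10 members were called higher. With only probe sets of 1 symbol, the background in the NEMO knockout was 7.22%, and 12 members were called higher. A background as bright as the members was not tested.

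The changes were small in most members. The median difference over all 37 was 0.14 for the NEMO knockout and 0.14 for the labelled double knockout, beside -0.04 and -0.03 over all probe sets tested. Ctss was the single called member whose difference passed 2-fold. At an unadjusted p under 0.05, 22 of the 37 members passed in the NEMO knockout, beside 5881 of the 28939 probe sets tested. In the labelled double knockout 19 passed, beside 6068. When each array was centred on its median, all probe sets split into 1304 higher and 1169 lower in the NEMO knockout, in place of 1638 and 584, and into 1309 and 1661 in the labelled double knockout, in place of 1680 and 1016. The members then split 9 to 2 and 8 to 3. Without labelled double knockout replicate 3, 6 members were called higher in that group in place of 10, and without NEMO knockout replicate 1 the counts were 11 for the NEMO knockout and 10 for the labelled double knockout.

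**Figure D1:**
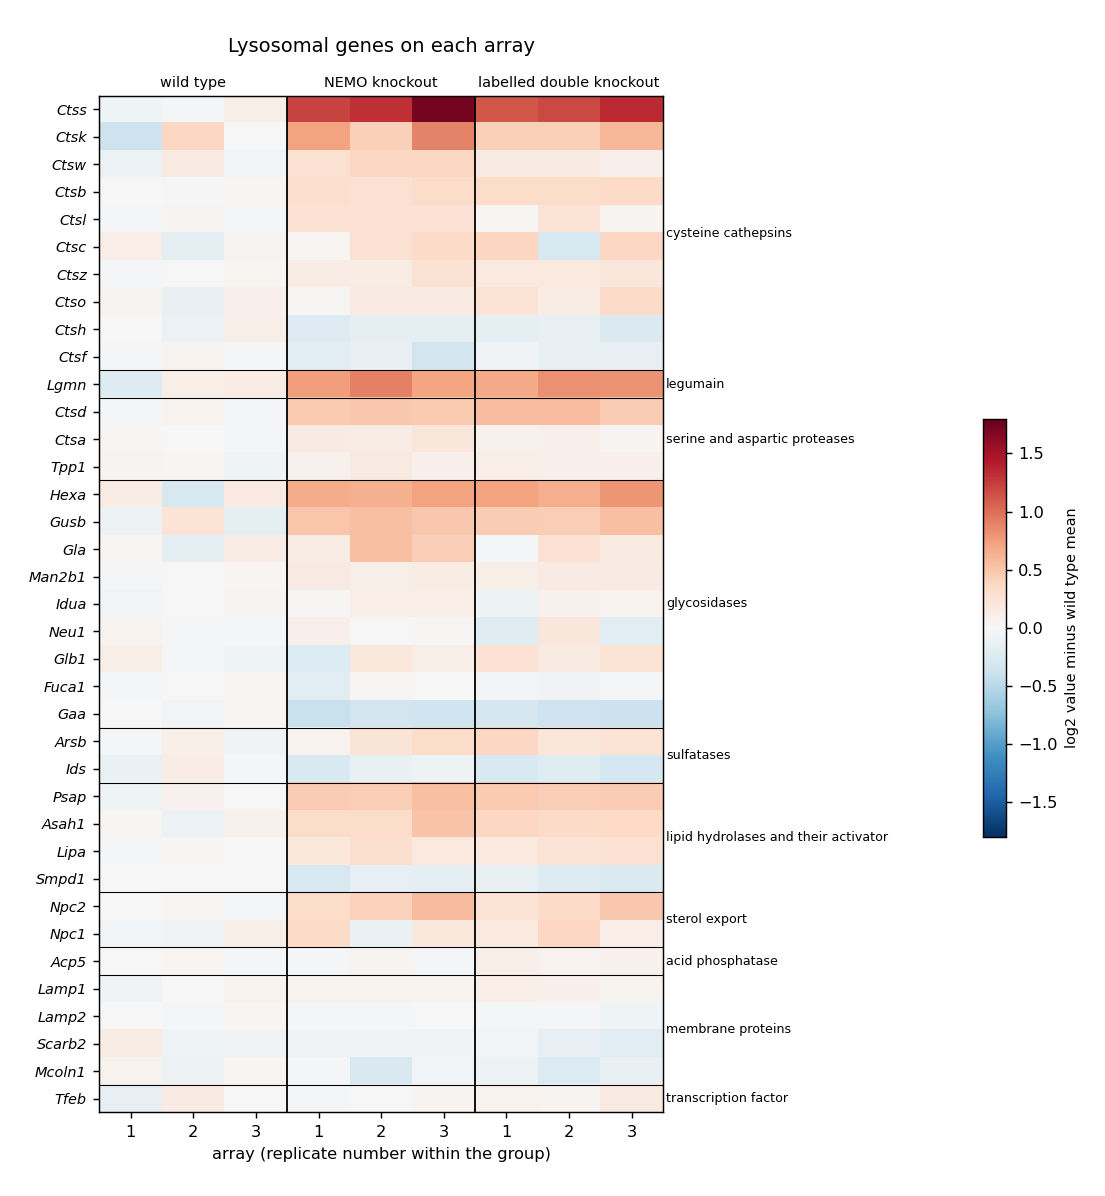
Log2 value of each of the 37 members on each of the 9 arrays, minus the mean of the 3 wild type arrays, with genes in rows by role and by the size of their difference in the NEMO knockout. Ctss, Lgmn and Hexa are strongly higher on all 6 knockout arrays, Gaa is lower on all 6, and the membrane proteins and Tfeb stay pale.

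Markers of macrophages moved with these counts. Of 9 measured markers of monocytes and infiltrating macrophages 8 rose in both knockouts, and their mean level was 6.56 to 6.79 over the wild type arrays, 8.22 to 8.34 over the NEMO knockout arrays and 8.16 to 8.47 over those of the labelled double knockout. Of 10 Kupffer cell markers 7 rose in both, with a mean level of 8.75 to 8.88 over the wild type arrays, 9.37 to 9.60 over the NEMO knockout arrays and 9.41 to 9.50 over those of the labelled double knockout. Of 6 markers of stellate cells and fibroblasts 5 rose in both, with a mean level of 8.91 to 9.06 over the wild type arrays, 10.01 to 10.36 over the NEMO knockout arrays and 9.94 to 10.08 over those of the labelled double knockout. The mean level of the 37 members was 9.80 to 9.84 over the wild type arrays, 9.98 to 10.07 over the NEMO knockout arrays and 10.00 to 10.01 over those of the labelled double knockout. Both knockouts thus also lay above wild type in the members, by much less, and overlapped each other. Gpnmb, a membrane glycoprotein of lipid-laden and scar-associated macrophages, showed the largest rise among these markers, 3.56 ± 0.15 and 3.96 ± 0.15. Of 4 sinusoidal and vascular endothelial markers none was called in either knockout, nor was any of 2 B cell or 2 exocrine pancreas markers. Over all probe sets 5.66% were called higher and 2.02% lower in the NEMO knockout, and 5.81% and 3.51% in the labelled double knockout. At those shares, no call among 4 or 2 genes is no result about these lists. Of 6 neutrophil markers 2 rose in the NEMO knockout, against 1 in the labelled double knockout, and of 4 cholangiocyte markers 1 rose in each. Between the knockouts none of the 63 measured markers of all lists was called, beside 0.0864% of all probe sets called higher and 0.111% lower. In whole tissue, more or fewer cells of a type and more or less RNA per cell cannot be told apart, array values have no true zero, and the part of these cells in the members' differences was not tested.

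**Figure D2:**
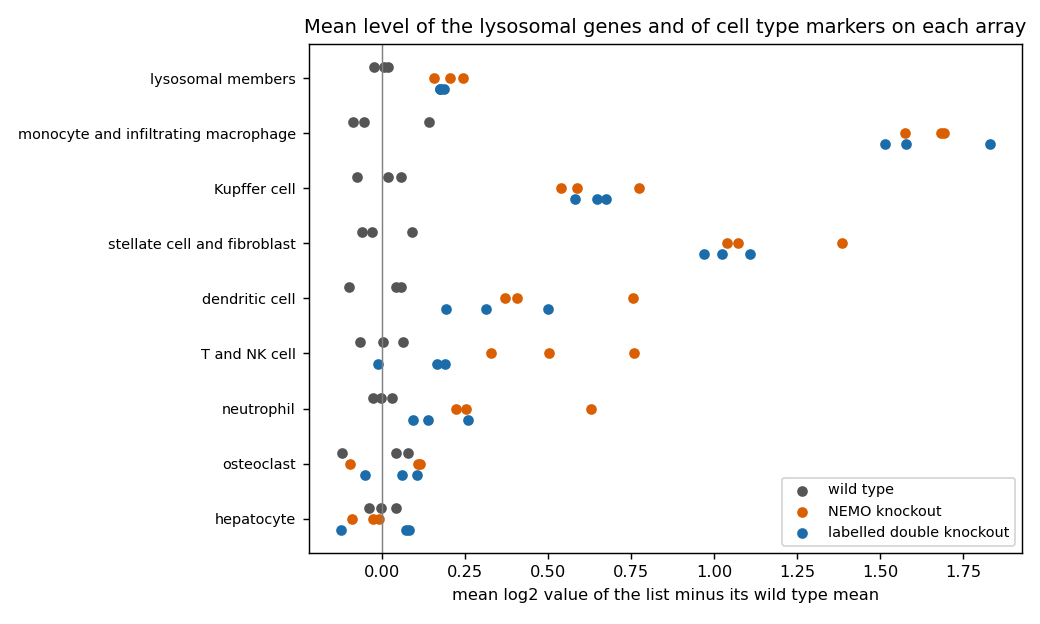
Mean log2 value of the 37 members and of 8 marker lists on each array, minus the mean of the list over the wild type arrays; each point is 1 array. The macrophage, stellate and Kupffer cell lists lie far to the right on all 6 knockout arrays, the members slightly to the right, and the hepatocyte list around 0.

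Cathepsin S was the member that changed most. It is an endopeptidase that stays active at neutral pH and cleaves the invariant chain in antigen-presenting cells. Its level on the 3 arrays of each group was 8.07, 8.12 and 8.25 on the wild type arrays, 9.36, 9.46 and 9.88 on those of the NEMO knockout, and 9.27, 9.34 and 9.50 on those of the labelled double knockout. Every knockout array lay above every wild type array by more than 1 log2 unit, and the knockout groups overlapped. The difference was 1.42 ± 0.13 in the NEMO knockout, 2.67-fold (adjusted p = 0.000391), and 1.22 ± 0.13 in the labelled double knockout, 2.33-fold (adjusted p = 0.000612).

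Cathepsin K, a collagen-degrading protease best known from osteoclasts, lies next to Ctss on chromosome 3. Its level was 5.84, 6.59 and 6.21 on the wild type arrays, 6.93, 6.64 and 7.11 on those of the NEMO knockout, and 6.64, 6.64 and 6.80 on those of the labelled double knockout. The knockout arrays were all higher than the wild type arrays, but the wild type arrays themselves spread widely. At 0.68 ± 0.18 in the NEMO knockout it just missed the threshold (adjusted p = 0.0504), and it was called without wild type replicate 2 (adjusted p = 0.0158) or without NEMO knockout replicate 2 (adjusted p = 0.0485). With all arrays kept, it was called there under some other settings. Among them were the filter on dim probe sets and array weights (adjusted p = 0.0399 and 0.0436 from limma). In the labelled double knockout the difference was 0.49 ± 0.18 (adjusted p = 0.149), and it too was called without wild type replicate 2 (adjusted p = 0.0377). None of 4 osteoclast markers (Calcr, Ocstamp, Dcstamp, Oscar) was called in either knockout. Over all probe sets 5.66% were called higher and 2.02% lower in the NEMO knockout, and 5.81% and 3.51% in the labelled double knockout. At those shares, no call among 4 genes is no result about the list. Their mean level was 5.63 to 5.82 over the wild type arrays, 5.65 to 5.86 over the NEMO knockout arrays and 5.69 to 5.85 over those of the labelled double knockout.

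Cathepsin W is a protease of natural killer cells and cytotoxic T cells. Its level was 5.65, 5.91 and 5.71 on the wild type arrays, 6.03, 6.13 and 6.13 on those of the NEMO knockout, and 5.91, 5.91 and 5.85 on those of the labelled double knockout. The NEMO knockout arrays lay above those of both other groups, while the labelled double knockout overlapped wild type. It rose by 0.34 ± 0.08 in the NEMO knockout (adjusted p = 0.0289), against 0.14 ± 0.08 in the labelled double knockout (adjusted p = 0.391). The call was lost without replicate 1 or 3 of wild type or replicate 2 or 3 of the NEMO knockout (adjusted p = 0.0921 to 0.101), and also after centring each array, after a second quantile normalisation and when the fit held just the 2 groups compared (adjusted p = 0.0582 to 0.0751). Markers of T and NK cells moved with it: 3 of 6 rose for the NEMO knockout and 0 for the labelled double knockout, and their mean level was 5.63 to 5.76 over the wild type arrays, 6.03 to 6.46 over the NEMO knockout arrays and 5.69 to 5.89 over those of the labelled double knockout. Over all probe sets, 5.66% and 5.81% were called higher against wild type in the 2 knockouts. Between the knockouts all 6 of these markers were lower in the labelled double knockout, and none was called (smallest adjusted p = 0.212 from limma). In that comparison 0.0864% of all probe sets were called higher and 0.111% lower. The part of these markers in the Ctsw difference was not tested.

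Of the other 7 cysteine cathepsins Ctsb alone was called, in both knockouts. Cathepsin B, a broadly expressed protease that also trims peptides from their ends, rose by 0.31 ± 0.06 in the NEMO knockout (adjusted p = 0.00940) and by 0.33 ± 0.06 in the labelled double knockout (adjusted p = 0.00537). Cathepsin L, a broad endopeptidase, was at 11.47, 11.55 and 11.48 on the wild type arrays, 11.77, 11.76 and 11.76 on those of the NEMO knockout, and 11.52, 11.75 and 11.54 on those of the labelled double knockout. All 3 NEMO knockout arrays were above the rest, but the difference of 0.27 ± 0.07 was not called (adjusted p = 0.0573). It was called without labelled double knockout replicate 2 (adjusted p = 0.0287) and under some other settings, among them eBayes with trend and robust (adjusted p = 0.0224). Ctsc, which activates the serine proteases of immune granules, differed from wild type by 0.22 ± 0.18 in the NEMO knockout, Ctsz, a carboxypeptidase, by 0.18 ± 0.06, and Ctso by 0.12 ± 0.09. Ctsh, an aminopeptidase, was at -0.18 ± 0.07 and Ctsf at -0.23 ± 0.07. None of these 5 was called in either knockout.

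Legumain cleaves after asparagine and processes several cathepsins to their mature forms. Its level was 9.72, 10.05 and 10.08 on the wild type arrays, 10.70, 10.86 and 10.66 on those of the NEMO knockout, and 10.63, 10.78 and 10.75 on those of the labelled double knockout. The 6 knockout arrays all exceeded the highest wild type array, and the knockout groups overlapped. The rise was 0.79 ± 0.11 in the NEMO knockout, 1.73-fold (adjusted p = 0.00208), and 0.77 ± 0.11 in the labelled double knockout, 1.71-fold (adjusted p = 0.00204). Its printed promoter holds 1 E-box.

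Among the serine and aspartic proteases 1 of 3 was called. Cathepsin D, the main aspartic protease of the lysosome, was at 11.21, 11.29 and 11.20 on the wild type arrays, 11.70, 11.72 and 11.70 on those of the NEMO knockout, and 11.79, 11.78 and 11.69 on those of the labelled double knockout. The arrays within each group lay close together, and the knockouts were apart from wild type. The rise was 0.48 ± 0.06, 1.39-fold (adjusted p = 0.00155), and 0.52 ± 0.06, 1.43-fold (adjusted p = 0.000855). Ctsa carries the same extended E-box as Ctsd in the entry of 1 start, while the entry of its other start holds no E-box. It encodes the carboxypeptidase that also protects neuraminidase and beta-galactosidase. Its level was 11.60, 11.58 and 11.57 on the wild type arrays, 11.73, 11.71 and 11.78 on those of the NEMO knockout, and 11.66, 11.67 and 11.63 on those of the labelled double knockout, and its difference was 0.16 ± 0.05 (adjusted p = 0.133) and 0.07 ± 0.05 (adjusted p = 0.562). Tpp1, a tripeptidyl peptidase, was at 10.56, 10.55 and 10.44 on the wild type arrays, 10.59, 10.67 and 10.61 on those of the NEMO knockout, and 10.64, 10.61 and 10.60 on those of the labelled double knockout, with differences of 0.11 ± 0.06 and 0.10 ± 0.06 and no call. The groups of Ctsa and Tpp1 did not overlap with wild type, but the differences were small.

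**Figure D3:**
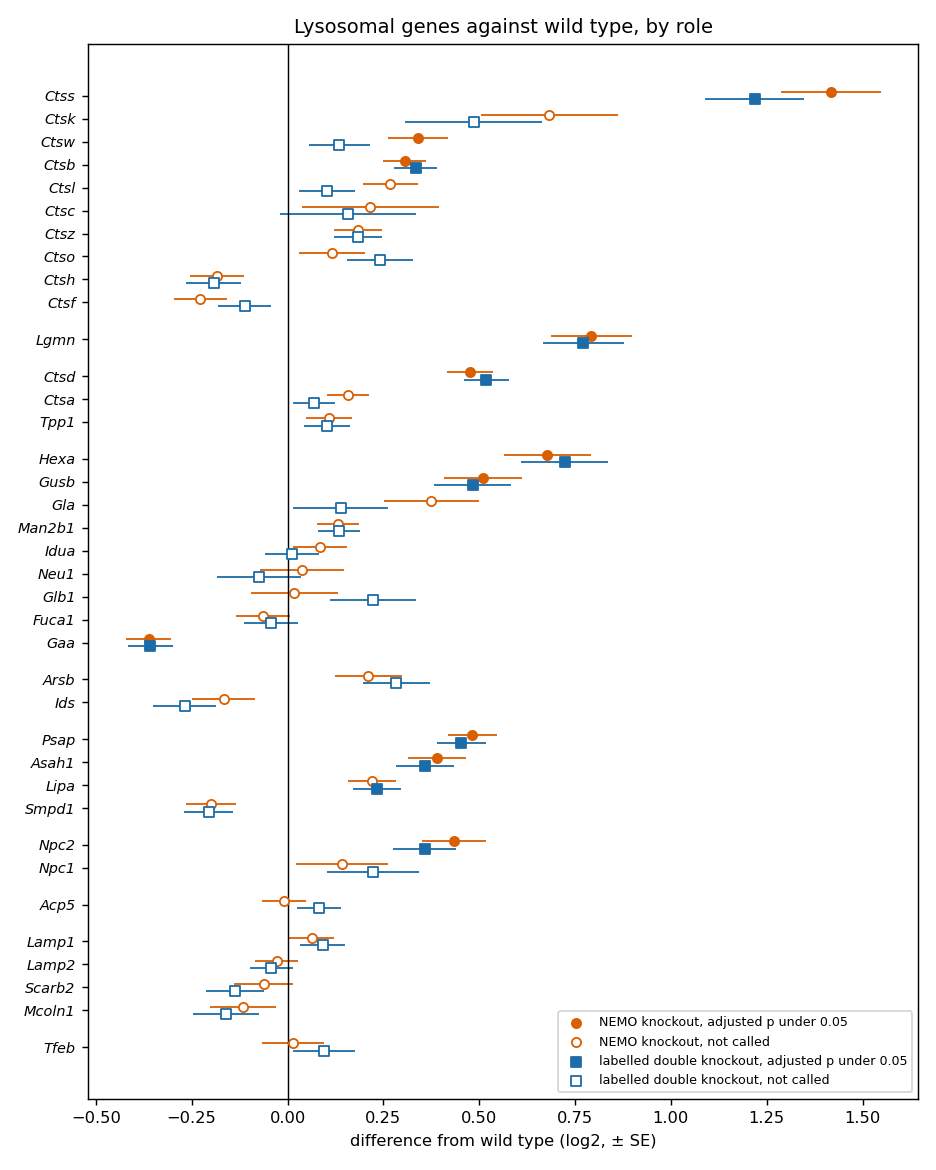
Difference of each member from wild type (log2, bars ± SE) in the NEMO knockout (circles) and the labelled double knockout (squares), filled where the adjusted p was under 0.05. Ctss lies far to the right at 1.42 and 1.22, and Gaa is the filled point to the left of 0, at -0.36 in both.

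The 9 glycosidases, which remove sugars from glycolipids, glycoproteins and glycosaminoglycans, gave 2 rises and 1 fall in each knockout. Hexa, the alpha subunit of beta-hexosaminidase, which degrades gangliosides, was at 9.63, 9.21 and 9.65 on the wild type arrays, 10.17, 10.13 and 10.23 on those of the NEMO knockout, and 10.22, 10.15 and 10.29 on those of the labelled double knockout. Wild type replicate 2 was the lowest array and the knockout arrays were all above wild type. Hexa rose by 0.68 ± 0.11, 1.60-fold (adjusted p = 0.00642), and by 0.72 ± 0.11, 1.65-fold (adjusted p = 0.00405). Gusb, beta-glucuronidase, was at 7.84, 8.19 and 7.78 on the wild type arrays, 8.44, 8.48 and 8.43 on those of the NEMO knockout, and 8.40, 8.38 and 8.48 on those of the labelled double knockout. Its knockout arrays were tightly grouped above a wider wild type group. Gusb rose by 0.51 ± 0.10 (adjusted p = 0.0146) and by 0.48 ± 0.10 (adjusted p = 0.0172). The first call was lost without replicate 1 or 3 of wild type or NEMO knockout replicate 2 (adjusted p = 0.0538 to 0.0565), and the second without replicate 1 or 3 of wild type or labelled double knockout replicate 3 (adjusted p = 0.0625 to 0.0706) or when the fit held just the 2 groups compared (adjusted p = 0.0534).

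Gaa, which frees glucose from glycogen and is deficient in Pompe disease, went the other way. Its level was 10.32, 10.26 and 10.35 on the wild type arrays, 9.91, 9.98 and 9.95 on those of the NEMO knockout, and 10.00, 9.93 and 9.92 on those of the labelled double knockout. All 6 knockout arrays lay below all 3 wild type arrays. It fell by 0.36 ± 0.06, 1.29-fold lower than wild type (adjusted p = 0.00568), and by 0.36 ± 0.06 (adjusted p = 0.00524), and both calls held without any 1 array and under every other setting tried. Its promoter, like the printed ones of Lgmn and Ctsd, holds an E-box.

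The other 6 glycosidases were not called in either knockout. Gla, alpha-galactosidase A, was at 7.83, 7.62 and 7.92 on the wild type arrays, 7.93, 8.33 and 8.23 on those of the NEMO knockout, and 7.77, 8.06 and 7.95 on those of the labelled double knockout. Its NEMO knockout arrays were all above wild type and its labelled double knockout arrays overlapped both. The difference was 0.37 ± 0.12 (adjusted p = 0.116) and 0.14 ± 0.12 (adjusted p = 0.626), and without NEMO knockout replicate 1 the first was called (adjusted p = 0.0354). Man2b1 (acid alpha-mannosidase), Idua (iduronidase), Neu1 (neuraminidase), Glb1 (beta-galactosidase) and Fuca1 (fucosidase) lay between -0.06 and 0.13 in the NEMO knockout and between -0.07 and 0.22 in the labelled double knockout.

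The sulfatases, which take sulfate off glycosaminoglycans, were not called. Arsb, arylsulfatase B, was at 9.87, 10.01 and 9.84 on the wild type arrays, 9.97, 10.14 and 10.24 on those of the NEMO knockout, and 10.29, 10.13 and 10.16 on those of the labelled double knockout. Only the labelled double knockout arrays were clear of wild type, with a difference of 0.28 ± 0.09 (adjusted p = 0.0809), after 0.21 ± 0.09 in the NEMO knockout (adjusted p = 0.211). Without NEMO knockout replicate 1 the first of these was called (adjusted p = 0.0478). Arsb is the 1 member with a second probe set, which gave 0.31 ± 0.09 (adjusted p = 0.0566) and 0.25 ± 0.09 (adjusted p = 0.137) in the same order. Ids, iduronate sulfatase, was at 8.33, 8.58 and 8.43 on the wild type arrays, 8.17, 8.32 and 8.35 on those of the NEMO knockout, and 8.18, 8.23 and 8.14 on those of the labelled double knockout. Its differences were -0.17 ± 0.08 (adjusted p = 0.303) and -0.27 ± 0.08 (adjusted p = 0.0820), and the second was called after each array was centred (adjusted p = 0.0477).

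Of the 4 genes of lipid breakdown 2 rose in the NEMO knockout, against 3 in the labelled double knockout. Psap encodes prosaposin, the precursor of the saposins that lift glycosphingolipids out of membranes for their hydrolases. Its level was 11.65, 11.81 and 11.74 on the wild type arrays, 12.19, 12.18 and 12.28 on those of the NEMO knockout, and 12.20, 12.17 and 12.19 on those of the labelled double knockout, with the knockouts clear of wild type and overlapping each other. Psap rose by 0.48 ± 0.06, 1.40-fold (adjusted p = 0.00203), and by 0.45 ± 0.06, 1.37-fold (adjusted p = 0.00239). Asah1, acid ceramidase, was at 9.73, 9.58 and 9.77 on the wild type arrays, 10.03, 10.02 and 10.20 on those of the NEMO knockout, and 10.07, 10.03 and 10.06 on those of the labelled double knockout, again with both knockouts above wild type. It rose by 0.39 ± 0.07 (adjusted p = 0.0124) and by 0.36 ± 0.07 (adjusted p = 0.0166), and the second call was lost without wild type replicate 2 or replicate 1 or 3 of the labelled double knockout (adjusted p = 0.0519 to 0.0610).

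Lipa, lysosomal acid lipase, hydrolyses the cholesteryl esters and triglycerides of endocytosed lipoproteins and is deficient in Wolman disease. Its level was 11.52, 11.59 and 11.58 on the wild type arrays, 11.76, 11.86 and 11.74 on those of the NEMO knockout, and 11.73, 11.82 and 11.84 on those of the labelled double knockout. Both knockouts lay above wild type, by 0.22 ± 0.06 and 0.23 ± 0.06. The second passed the threshold (adjusted p = 0.0485) and the first did not (adjusted p = 0.0691). The difference between the knockouts was 0.01 ± 0.06 (adjusted p = 0.983), and the call was lost when any 1 of the 9 arrays was left out (adjusted p = 0.0523 to 0.164) and after centring (adjusted p = 0.154). Smpd1, acid sphingomyelinase, differed from wild type by -0.20 ± 0.06 (adjusted p = 0.110) and -0.21 ± 0.06 (adjusted p = 0.0897), and the second was called after each array was centred (adjusted p = 0.0443).

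**Figure D4:**
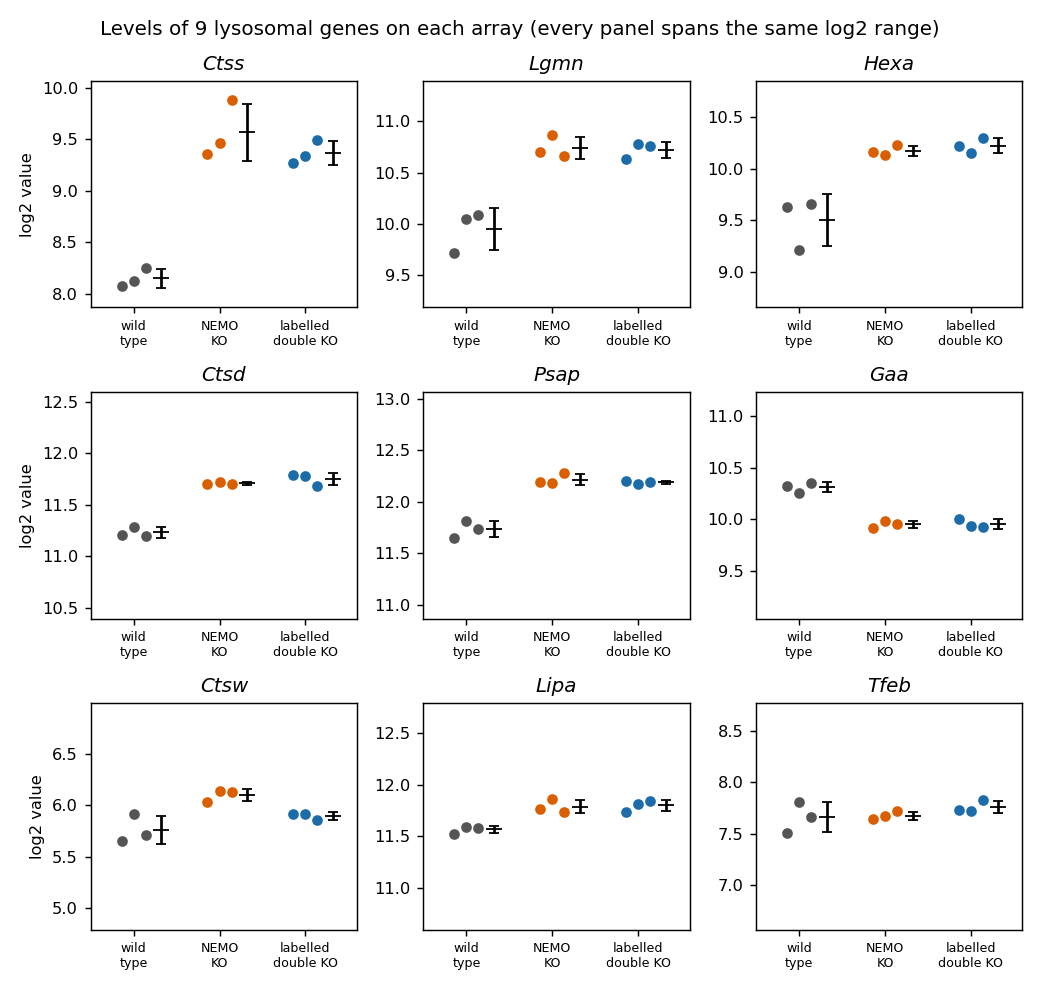
Log2 level of 9 members on each array (points), with the mean and SD of each group of 3 (bars); every panel spans the same log2 range. Ctss, Lgmn, Hexa, Ctsd and Psap are higher in both knockouts, Gaa is lower in both, Ctsw stands out in the NEMO knockout, and the groups of Tfeb overlap.

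Cholesterol freed by Lipa leaves the lysosome through Npc2, a soluble carrier, and Npc1, the membrane transporter that takes it over. Npc2 was at 8.63, 8.67 and 8.63 on the wild type arrays, 8.97, 9.06 and 9.21 on those of the NEMO knockout, and 8.89, 8.99 and 9.13 on those of the labelled double knockout, with both knockouts above wild type. It rose by 0.43 ± 0.08, 1.35-fold (adjusted p = 0.0122), and by 0.36 ± 0.08, 1.28-fold (adjusted p = 0.0268). The second call was lost without any 1 of the wild type arrays or replicate 2 or 3 of the labelled double knockout (adjusted p = 0.0609 to 0.0997), and after centring (adjusted p = 0.0754). Npc1 was at 11.08, 11.07 and 11.23 on the wild type arrays, 11.48, 11.01 and 11.32 on those of the NEMO knockout, and 11.30, 11.51 and 11.25 on those of the labelled double knockout. NEMO knockout replicate 2 lay below every wild type array and the other 2 above, and the differences of 0.14 ± 0.12 (adjusted p = 0.571) and 0.22 ± 0.12 (adjusted p = 0.345) were not called.

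The acid phosphatase, the membrane proteins and Tfeb gave no call. Acp5, the tartrate-resistant phosphatase of osteoclasts and activated macrophages, was at 10.68, 10.73 and 10.67 on the wild type arrays, 10.66, 10.74 and 10.65 on those of the NEMO knockout, and 10.80, 10.76 and 10.77 on those of the labelled double knockout, a difference of -0.01 ± 0.06 and 0.08 ± 0.06. Lamp1, which with Lamp2 makes up much of the lysosomal membrane, was at 11.88, 11.94 and 12.00 on the wild type arrays, 12.01, 12.00 and 12.00 on those of the NEMO knockout, and 12.06, 12.04 and 12.00 on those of the labelled double knockout. Scarb2, the receptor that carries glucocerebrosidase to the lysosome, was at 10.37, 10.15 and 10.16 on the wild type arrays, 10.16, 10.17 and 10.16 on those of the NEMO knockout, and 10.17, 10.08 and 10.02 on those of the labelled double knockout. Mcoln1, a calcium channel of the lysosomal membrane and a TFEB target, was at 10.76, 10.61 and 10.74 on the wild type arrays, 10.68, 10.43 and 10.66 on those of the NEMO knockout, and 10.61, 10.46 and 10.56 on those of the labelled double knockout. The groups of Lamp1 and Scarb2 overlapped with wild type in both knockouts. Differences were 0.06 ± 0.06 and 0.09 ± 0.06 for Lamp1, -0.06 ± 0.08 and -0.14 ± 0.08 for Scarb2, -0.12 ± 0.09 and -0.16 ± 0.09 for Mcoln1, and -0.03 ± 0.06 and -0.04 ± 0.06 for Lamp2. The smallest adjusted p among these 4 was 0.341.

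Tfeb itself was at 7.51, 7.81 and 7.67 on the wild type arrays, 7.64, 7.67 and 7.72 on those of the NEMO knockout, and 7.73, 7.72 and 7.82 on those of the labelled double knockout. The wild type arrays spanned nearly the whole range of the knockouts. The difference was 0.01 ± 0.08 in the NEMO knockout (95% interval -0.17 to 0.20, adjusted p = 0.951) and 0.10 ± 0.08 in the labelled double knockout (95% interval -0.09 to 0.28, adjusted p = 0.603). The array measures the messenger RNA, while TFEB is known to be controlled largely by phosphorylation and entry into the nucleus.

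Between the labelled double knockout and the NEMO knockout none of the 37 members was called by limma in either direction, against backgrounds of 0.0864% called higher and 0.111% called lower. At an unadjusted p under 0.05 there were 2 of the 37 members, Ctsw and Ctsl, beside 2158 of the 28939 probe sets tested. The members' share was no larger than that of all probe sets, so these 2 are no result about the group. Ctsw differed by -0.20 ± 0.08 (adjusted p = 0.605), with the 2 groups apart. Ctsl differed by -0.17 ± 0.07 (adjusted p = 0.668). Gla had the next smallest p, with a difference of -0.24 ± 0.12 (adjusted p = 0.719). The largest rise from wild type, that of Ctss, differed between the knockouts by -0.20 ± 0.13 (95% interval -0.49 to 0.09). The 95% intervals differed in width between members. That of Ctsk was -0.60 to 0.21 and that of Glb1 -0.05 to 0.46, while that of Ctsb was -0.10 to 0.15 and that of Psap -0.17 to 0.12.

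The rest of the lysosomal pathway was read from 89 other genes, of which 78 had a probe set with 1 symbol. In the NEMO knockout 20 of them rose and 0 fell, beside 5.66% and 2.02% of all probe sets. In the labelled double knockout 18 rose and 1 fell, beside 5.81% and 3.51%. The median difference was 0.13 and 0.08. None was called between the knockouts. With dim probe sets left out, the shares of all probe sets called higher were 8.141% and 8.104%.

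Of 15 subunits and partners of the proton pump 4 rose in each knockout. Atp6v0d2, a subunit found in macrophages and osteoclasts, was at 6.82, 7.02 and 6.19 on the wild type arrays, 8.68, 7.96 and 7.96 on those of the NEMO knockout, and 7.99, 9.13 and 8.17 on those of the labelled double knockout. Every knockout array was above wild type, with a wide spread within each group. It rose by 1.52 ± 0.33 (adjusted p = 0.0216) and 1.75 ± 0.33 (adjusted p = 0.00990), and the first call was lost without replicate 1 or 3 of wild type or replicate 1 or 3 of the NEMO knockout (adjusted p = 0.0509 to 0.0799). Its close relative Atp6v0d1, the form found in most tissues, was at 0.00 ± 0.07 and -0.04 ± 0.07, and it is named here after its value was seen. Atp6v1b2 rose by 0.71 ± 0.09 and 0.51 ± 0.09 (adjusted p = 0.00193 and 0.00891).

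Of 20 other hydrolases and activators 4 rose in each knockout and 1 fell in the labelled double knockout. Hpse, heparanase, which cleaves heparan sulfate, was at 7.50, 7.67 and 7.72 on the wild type arrays, 8.24, 8.60 and 8.73 on those of the NEMO knockout, and 8.27, 8.28 and 8.34 on those of the labelled double knockout. Its knockout arrays were all above wild type, by 0.89 ± 0.12 (adjusted p = 0.00203) and 0.66 ± 0.12 (adjusted p = 0.00772). Prcp, a prolyl carboxypeptidase, rose by 0.53 ± 0.11 and 0.62 ± 0.11 (adjusted p = 0.0202 and 0.00907), and its first call was lost without any 1 of the wild type arrays or replicate 2 or 3 of the NEMO knockout (adjusted p = 0.0558 to 0.0683). Galns, a sulfatase of keratan sulfate, rose by 0.52 ± 0.09 and 0.45 ± 0.09 (adjusted p = 0.00761 and 0.0125). Hgsnat, the acetyltransferase of heparan sulfate breakdown, fell by 0.27 ± 0.06 in the labelled double knockout (adjusted p = 0.0303), against -0.24 ± 0.06 in the NEMO knockout (adjusted p = 0.0540). That call was lost without any 1 of the wild type or labelled double knockout arrays (adjusted p = 0.0600 to 0.100).

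Of 14 other lysosomal membrane proteins 4 rose in the NEMO knockout, against 3 in the labelled double knockout. Cd68, a macrophage scavenger receptor that also stands in the macrophage marker list, was at 8.68, 8.88 and 8.69 on the wild type arrays, 9.89, 10.18 and 9.84 on those of the NEMO knockout, and 10.06, 10.25 and 9.86 on those of the labelled double knockout. It rose by 1.22 ± 0.12 and 1.31 ± 0.12 (adjusted p = 0.000561 and 0.000320). Laptm5, a protein of blood cells, rose by 1.12 ± 0.11 and 1.14 ± 0.11 (adjusted p = 0.000451 and 0.000341). Cd63, a tetraspanin of late endosomes, rose by 0.98 ± 0.18 and 1.43 ± 0.18 (adjusted p = 0.0111 and 0.00153). The median of the 14 was 0.05 and -0.02.

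Of 9 genes that sort hydrolases to the lysosome 1 was called higher in each knockout, beside 5.66% and 5.81% of all probe sets, and 1 call among 9 genes is no result about the list. Gnptab, a subunit of the enzyme that starts the mannose phosphate tag, rose by 0.32 ± 0.07 in the NEMO knockout (adjusted p = 0.0205), against 0.13 ± 0.07 in the labelled double knockout (adjusted p = 0.332). Its call was lost without replicate 1 or 3 of wild type or replicate 2 or 3 of the NEMO knockout (adjusted p = 0.0567 to 0.0774). Igf2r, the large mannose phosphate receptor, rose by 0.32 ± 0.07 in the labelled double knockout (adjusted p = 0.0263), against 0.28 ± 0.07 in the NEMO knockout (adjusted p = 0.0522). It missed the threshold without any 1 of the wild type arrays or replicate 2 or 3 of the labelled double knockout (adjusted p = 0.0612 to 0.102). The same held after centring each array and when the fit held just the 2 groups compared (adjusted p = 0.0806 and 0.0512 from limma). The Igf2r call in the NEMO knockout was gained without labelled double knockout replicate 1 (adjusted p = 0.0317). It was also gained under some other settings, among them repeated quantile normalisation and array weights (adjusted p = 0.0292 and 0.0320 from limma).

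Of 6 cathepsin inhibitors 2 rose in both knockouts. Cst3, cystatin C, a secreted inhibitor, was at 11.89, 11.80 and 11.93 on the wild type arrays, 12.23, 12.27 and 12.20 on those of the NEMO knockout, and 12.17, 12.16 and 12.13 on those of the labelled double knockout, and it rose by 0.36 ± 0.06 and 0.28 ± 0.06 (adjusted p = 0.00598 and 0.0182). Cstb, the intracellular cystatin B, was at 10.07, 9.93 and 9.95 on the wild type arrays, 10.34, 10.34 and 10.45 on those of the NEMO knockout, and 10.27, 10.32 and 10.32 on those of the labelled double knockout, and it rose by 0.40 ± 0.06 and 0.32 ± 0.06 (adjusted p = 0.00580 and 0.0134). Both stood above wild type on all 6 knockout arrays. In the labelled double knockout the Cst3 call was lost without replicate 1 or 2 of wild type or any 1 of its own arrays (adjusted p = 0.0505 to 0.0566), and the Cstb call without wild type replicate 3 or labelled double knockout replicate 3 (adjusted p = 0.0516 to 0.0562).

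Of 9 relatives of Tfeb and genes of its nutrient switch none was called in either knockout. Over all probe sets 5.66% were called higher and 2.02% lower in the NEMO knockout, and 5.81% and 3.51% in the labelled double knockout. At those shares, no call among 9 genes is no result about the list. The 9 include Tfe3, Mitf and Tfec, the other members of the factor's family, the folliculin complex, and the Rag GTPases that hold TFEB at the lysosome. Their differences lay between -0.23 and 0.27 in the NEMO knockout and between -0.13 and 0.32 in the labelled double knockout.

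The MHC class II genes, whose loading depends on cathepsin S, gave 5 calls of 5 for the NEMO knockout and 4 of 5 for the labelled double knockout. H2-Aa was at 9.35, 9.01 and 9.43 on the wild type arrays, 10.69, 10.47 and 11.06 on those of the NEMO knockout, and 9.99, 10.20 and 10.50 on those of the labelled double knockout. The 3 groups did not overlap except at the edge of the knockouts, and the labelled double knockout lay between the others. H2-Aa rose by 1.48 ± 0.18 and 0.97 ± 0.18 (adjusted p = 0.00130 and 0.00921). H2-Ab1 rose by 1.39 ± 0.24 in the NEMO knockout (adjusted p = 0.00722) and was at 0.72 ± 0.24 in the labelled double knockout without a call (adjusted p = 0.105). H2-Eb1 rose by 1.38 ± 0.19 and 0.83 ± 0.19 (adjusted p = 0.00255 and 0.0255). Cd74, the invariant chain that cathepsin S cleaves, is named for that link after its values were seen, and it rose by 1.25 ± 0.17 and 0.72 ± 0.17 (adjusted p = 0.00213 and 0.0260). In the labelled double knockout the H2-Eb1 call was lost without replicate 2 or 3 of wild type or its own replicate 2 or 3 (adjusted p = 0.0575 to 0.0895), and the Cd74 call without replicate 1 or 2 of wild type or its own replicate 2 or 3 (adjusted p = 0.0558 to 0.0965). Between the knockouts all 5 were lower in the labelled double knockout, by -0.67 to -0.38, and none was called. Dendritic cell markers, 2 of 4 called higher for the NEMO knockout and 1 of 4 for the labelled double knockout, had a mean level of 6.12 to 6.28 over the wild type arrays, 6.59 to 6.98 over the NEMO knockout arrays and 6.41 to 6.72 over those of the labelled double knockout, and their part was not tested.

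**Figure D5:**
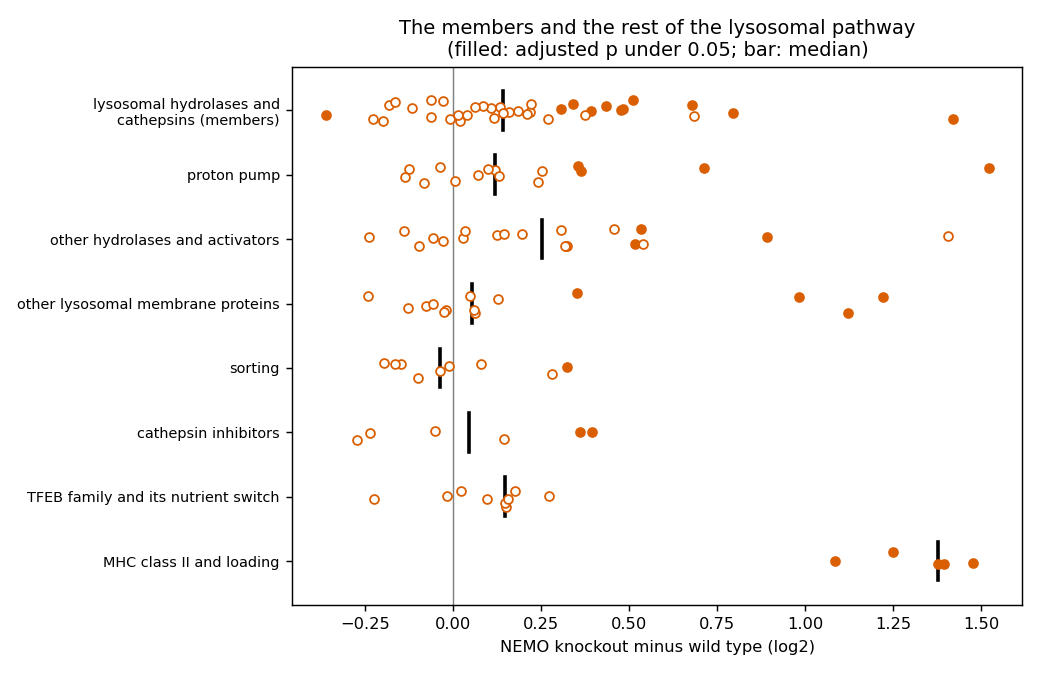
Difference of the NEMO knockout from wild type (log2) for the 37 members and for the other lysosomal lists; each point is 1 gene, filled where the adjusted p was under 0.05, and the vertical bars are medians. The medians of the members and of the other lists but the last lie between -0.04 and 0.25, with a few genes far to the right, while all 5 MHC class II genes lie beyond 1.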

How the data were processed

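The deposited table holds log2 values, 1 per probe set and array, made by the authors with RMA, per the submitters' processing notes; its quantile step would hide a shift of all RNA. The log base was taken from RMA and the range of values, and the sources used here give no versions. Of 35556 probe sets, 6617 unannotated ones were taken, from their identifiers, to be controls and left out. Of the 28939 tested, 21789 had 1 gene symbol, 1621 several and 5529 none. Members and lists were chosen with earlier results of these data known.

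Group means were compared by limma (version 3.58.1, R 4.3.3), using lmFit and eBayes without trend on the 9 arrays together, and p-values were adjusted after Benjamini and Hochberg over every probe set tested. Nothing in the labels but the replicate numbers says that arrays are separate animals, so p-values measure the spread between these samples, and 3 arrays per group limit the precision. Array values were given for up to 3 members per role with the largest difference in the NEMO knockout, members whose call differed between knockouts, those called lower, the 3 with the smallest p between knockouts, and Tfeb. Of the other lists, up to 3 called genes each way were named, with all called inhibitors. The alternatives were the 2 groups compared alone, median centring, repeated quantile normalisation, a filter on dim probe sets, eBayes with trend and robust, array weights, a replicate block, other sets of probe sets, and each array left out. Genes without a probe set of 1 symbol were not analysed here.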

Additional observations from a re-analysis of the deposited data

How the results depend on the processing

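The number of members called higher in the NEMO knockout was 10 and ranged from 8 to 15 over the alternatives, and without each array in turn from 8 to 11. For the labelled double knockout it was 10 and ranged from 6 to 10 without each array in turn, and from 8 to 11 under the other settings. The number called lower in the NEMO knockout was 1, and 2 after median centring, which added Ctsf. The number called lower in the labelled double knockout was 1, and 3 after median centring (Ids and Smpd1 added), 2 after repeated quantile normalisation (Ids), 2 with trend and robust (Smpd1) and 2 with array weights (Smpd1). Between the knockouts 0 members were called in any setting. Taken gene by gene over all settings, calls of members were lost 10 times and gained 22 times in the NEMO knockout, and lost 26 times and gained 10 times in the labelled double knockout. No called difference changed sign in the settings run.

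With the replicate number as a block, 10 members were called higher and 1 lower in the NEMO knockout, and 9 and 1 in the labelled double knockout. There Lipa was lost (adjusted p = 0.0545 from limma) and no member was gained. Among the other pathway genes H2-Ab1 was gained in the labelled double knockout (adjusted p = 0.0158 from limma). Atp6v1e1 was lost in the NEMO knockout (adjusted p = 0.0552 from limma). Deviations from the group means correlated at -0.12 to 0.39 for arrays of different groups with the same number, and at -0.30 to 0.18 for those with different numbers. Between the knockouts the same-number pairs were at 0.39, 0.08 and 0.25, and the others at -0.30 to 0.11. A factor shared by arrays of 1 number is therefore not excluded. The main fit has no block because the labels do not say what the numbers mark.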

Other observations

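Ctse, cathepsin E, an aspartic protease of endosomes, was singled out after its values were seen. It was at 9.69 in NEMO knockout replicate 3 and between 5.71 and 6.12 on the other 8 arrays. The group difference was 1.41 ± 0.80 (adjusted p = 0.376 from limma), and with 3 arrays per group no outlier test was made. On the same array Naaa, an acid amidase, was also the highest of the 9, at 8.25, 8.28 and 8.20 on the wild type arrays, 8.46, 8.61 and 9.03 on those of the NEMO knockout, and 8.25, 8.41 and 8.54 on those of the labelled double knockout, with a difference of 0.46 ± 0.14 (adjusted p = 0.0820 from limma).

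Ostm1, a partner of the lysosomal chloride exchanger Clcn7, was also singled out after its values were seen. It was called in the NEMO knockout and not in the labelled double knockout. Its level was 8.65, 8.72 and 8.67 on the wild type arrays, 8.91, 9.08 and 9.09 on those of the NEMO knockout, and 8.60, 8.68 and 8.73 on those of the labelled double knockout. It rose in the NEMO knockout by 0.35 ± 0.07 (adjusted p = 0.0157 from limma) and was at -0.01 ± 0.07 in the labelled double knockout (adjusted p = 0.976). The difference between the knockouts was -0.36 ± 0.07 (adjusted p = 0.125), with the groups apart and no call. The call in the NEMO knockout was lost after centring each array (adjusted p = 0.0583 from limma) and without replicate 1 or 3 of wild type or replicate 2 or 3 of the NEMO knockout (adjusted p = 0.0542 to 0.0642 from limma).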
